A study of Mus musculus with 2 samples.

Results

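S100a4, S100a6, S100a10, S100a11, S100a13, Lgals1, Crip1, Vim and Ahnak form a set of 9 genes. They encode S100 proteins and proteins of the cytoskeleton and cell surface. The set is described here across single thymic cells of the regulatory T (Treg) lineage. All 9 were found by symbol among the 32285 genes of the deposited matrix. They were chosen by measured values, namely earlier UMI results of these same cells, in which S100a4 and S100a6 stood beside the chemokine receptor gene Cxcr3. Their levels in the classes below are therefore a description, and no test was made.

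The cells came from the thymus of 2 C57BL/6 mice. Both carried Foxp3eGFP, a green fluorescent reporter of Foxp3, the defining transcription factor of Treg cells. The second mouse, labelled Foxp3eGFPxLta-/- and called Lta-/- here, also lacked Lta, the gene for lymphotoxin alpha. From each mouse 20000 CD4+CD8-CCR6-CD3e+ cells with CD25 (encoded by Il2ra), eGFP or both were sorted after depletion of CD8+ and CD11c+ cells, marked with a hashtag antibody and loaded together into 1 capture. With 1 mouse per genotype there is no replicate error, and the genotype cannot be told apart from the mouse. The labels give no age for the mice.

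After filtering, 4415 cells with 1 hashtag and no UMI of the myeloid gene Lyz2 were analysed, 2224 Lta-/- and 2191 Foxp3eGFP cells. A UMI is a tag that marks 1 captured RNA molecule. The cells held 28745480 UMIs, at a median of 5396.5 per Lta-/- cell and 5541 per Foxp3eGFP cell. Lta itself had 72 UMIs in the Lta-/- cells and 508 in the others. The T cell genes Cd3e, Cd3d and Cd3g had a UMI in 95.3%, 98.4% and 98.7% of the cells, Cd4 in 59.4% and Foxp3 in 883 of the 4415 cells. Levels are UMIs of a gene per 1000000 UMIs of pooled cells (CPM), read from the 3′ end of the RNA and not divided by gene length. All intervals are exact 95% intervals for counting error alone, so they hold no variation between cells or mice.

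Most S100 proteins bind calcium through EF-hand loops and then attach to partner proteins. S100a4 and S100a6 bind cytoskeletal and other targets, S100a10 pairs with annexin A2 (Anxa2) at membranes, S100a11 binds annexins, and S100a13 takes part in the release of proteins that lack a signal peptide. Lgals1 encodes galectin-1, which binds sugars on cell surface proteins, Crip1 a small LIM domain protein, Vim the intermediate filament vimentin, and Ahnak a giant scaffold protein that binds the S100a10 and annexin A2 complex. In T cells several of these genes are known as marks of activated or memory cells, and Cxcr3 is known as a receptor of effector cells. S1pr1 encodes the receptor that leads mature cells out of the thymus, Ctla4 an inhibitory receptor of Treg cells, and Mki67 a protein of dividing cells.

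The 5 S100 genes of the set lie on chromosome 3 in GRCm38, by RefSeq. S100a13 (90514233 to 90524581), S100a4 (90603770 to 90606045) and S100a6 (90612894 to 90614414) span 100.2 kb, and 6848 bp separate S100a4 from S100a6. S100a11 (93520496 to 93526288) and S100a10 (93555117 to 93564645) lie 2.91 Mb further on and 28.8 kb apart. S100a13 overlaps S100a1 and Lgals1 overlaps Gm30368 in that annotation, so counts of these members may hold reads of the overlapping gene. Lgals1 is on chromosome 15 (78926725 to 78930465), Crip1 on 12 (113152012 to 113153879), Vim on 2 (13574311 to 13582826) and Ahnak on 19 (8989284 to 9076935).

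Promoter windows were found for 7 of the 9 members in RefSeq (GRCm38.p6). The 250 bases before the start are shown for S100a4, S100a6 and S100a11, which had their highest levels in cells with a Cxcr3 UMI, and for Crip1 and Vim, which had theirs in cells with a Mki67 UMI. All are on the plus strand, written 5′ to 3′, at chr3:90603520-90603769, chr3:90612644-90612893, chr3:93520246-93520495, chr12:113151762-113152011 and chr2:13574061-13574310, in that order. Capitals mark each match, on either strand, of AP-1 (TGANTCA), the TATA box (TATAAA), the GC box (GGGCGG) and the E-box (CACGTG).
S100a4: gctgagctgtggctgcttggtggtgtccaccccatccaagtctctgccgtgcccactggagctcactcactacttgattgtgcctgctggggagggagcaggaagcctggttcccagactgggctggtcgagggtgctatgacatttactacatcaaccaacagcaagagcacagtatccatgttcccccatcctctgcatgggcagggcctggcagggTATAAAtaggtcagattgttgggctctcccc
S100a6: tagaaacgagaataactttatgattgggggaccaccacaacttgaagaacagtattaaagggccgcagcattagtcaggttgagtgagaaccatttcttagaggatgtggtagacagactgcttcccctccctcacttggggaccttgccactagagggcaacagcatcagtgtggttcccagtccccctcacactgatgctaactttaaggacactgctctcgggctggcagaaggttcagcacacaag
S100a11: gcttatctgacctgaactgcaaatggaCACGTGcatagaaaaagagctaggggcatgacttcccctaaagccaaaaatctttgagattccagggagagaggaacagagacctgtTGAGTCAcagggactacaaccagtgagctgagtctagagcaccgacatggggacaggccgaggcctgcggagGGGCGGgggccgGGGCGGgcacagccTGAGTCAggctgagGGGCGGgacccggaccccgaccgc
Crip1: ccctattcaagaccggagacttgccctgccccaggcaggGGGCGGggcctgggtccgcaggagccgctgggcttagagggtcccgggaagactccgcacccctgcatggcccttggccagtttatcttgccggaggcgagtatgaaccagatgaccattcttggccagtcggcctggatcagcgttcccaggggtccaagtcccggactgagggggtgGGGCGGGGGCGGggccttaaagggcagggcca
Vim: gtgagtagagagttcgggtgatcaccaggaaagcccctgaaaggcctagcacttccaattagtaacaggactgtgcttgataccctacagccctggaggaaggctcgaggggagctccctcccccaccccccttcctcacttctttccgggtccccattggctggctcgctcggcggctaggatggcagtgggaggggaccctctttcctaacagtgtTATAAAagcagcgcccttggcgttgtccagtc
The window of S100a4 held a TATA box 31 to 26 bases before the start and that of Vim 1 at 32 to 27 bases. The S100a11 window held 2 AP-1 matches, 3 GC boxes and 1 E-box, and the Crip1 window 3 GC boxes, of which 2 adjoin without overlap. The S100a6 window held none of the 4 motifs. Among 32851 windows of the same length, 6.75% held the AP-1 letters, 12.4% the TATA box, 32.7% the GC box and 6.02% the E-box. These matches describe the letters of the windows and no more.

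The members ranged from genes found in most cells to genes found in few. Vim had a UMI in 77.5% of the cells (76.2 to 78.7), S100a10 in 74.5%, Crip1 in 66.5%, S100a13 in 52.5% and Lgals1 in 45.5%. S100a11 was seen in 24.9%, Ahnak in 10.7%, S100a6 in 6.46% (5.75 to 7.22) and S100a4 in 3.60% (3.07 to 4.19). With every cell thinned to 3000 UMIs, which left out 305 shallower cells, the shares ran from 68.5% for Vim to 2.80% for S100a4. As a low reference, 1072 cells had a UMI of Ccr9, a receptor of immature thymocytes, and none of Cxcr3. Set again from the thinned counts, this class held 717 cells. Its thinned shares were 0.558% for S100a4, 0.837% for S100a6 and 1.39% for Ahnak. All 3 shares lay below those over all cells, which were 2.80%, 4.67% and 6.64%. Cells with Cxcr3, in which these 3 genes were high, were left out of the reference but not of all cells. The part of that choice in the gap was not tested.

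S100a4 and S100a6 were carried by very few cells. The 45 cells with the most UMIs of each gene, 1% of all, held 68.9% of the S100a4 UMIs and 58.7% of the S100a6 UMIs. The same share of cells held 29.4% for S100a11, 28.7% for Ahnak, 16.7% for Lgals1, 13.7% for Crip1, 12.4% for S100a10, 9.67% for Vim and 7.21% for S100a13. Single cells reached 59 UMIs of S100a4 and 72 of S100a6, while no cell had more than 10 of S100a13. In thinned cells the variance over the mean was 7.78 for S100a4 and 6.40 for S100a6, against 1.09 for S100a13, which is near the value of 1 that counting alone gives. The counting intervals of S100a4 and S100a6 are for that reason too narrow as limits for other cells of the same kind.

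**Figure D1:**
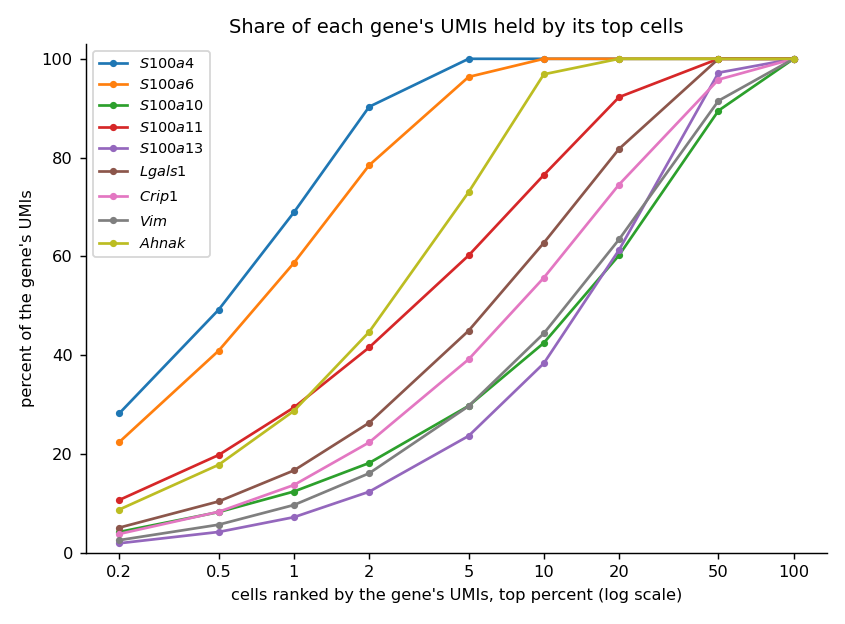
Share of each gene's UMIs (y, percent) held by the cells with the most UMIs of that gene (x, top percent of the 4415 cells, log scale), 1 line per gene. The lines of S100a4 and S100a6 reach 68.9% and 58.7% at the top 1% of cells, where that of S100a13 is at 7.21%.

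The concentrated genes were found in the same cells more often than the others. In the 4110 thinned cells, S100a6 was detected in 77 of the 115 cells with S100a4, or 67.0% (57.6 to 75.4), and in 2.88% of the cells without it. S100a11 was detected in 79.1% of the cells with S100a4 and in 13.6% of those without, and Ahnak in 49.6% and 5.41%. Crip1 was detected in 70.4% of the cells with Lgals1 and in 47.3% of the others, a smaller gap. Over the 36 pairs of members the correlation across cells ran from 0.05 to 0.58, with a median of 0.19. These correlations share library and depth, cover sparse counts and are given as a description. The highest were S100a4 with S100a6 at 0.58, S100a6 with S100a11 at 0.53 and S100a4 with S100a11 at 0.44. Vim had 0.05 with S100a4 and 0.29 with Crip1, and S100a13 had at most 0.13 with any member.

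**Figure D2:**
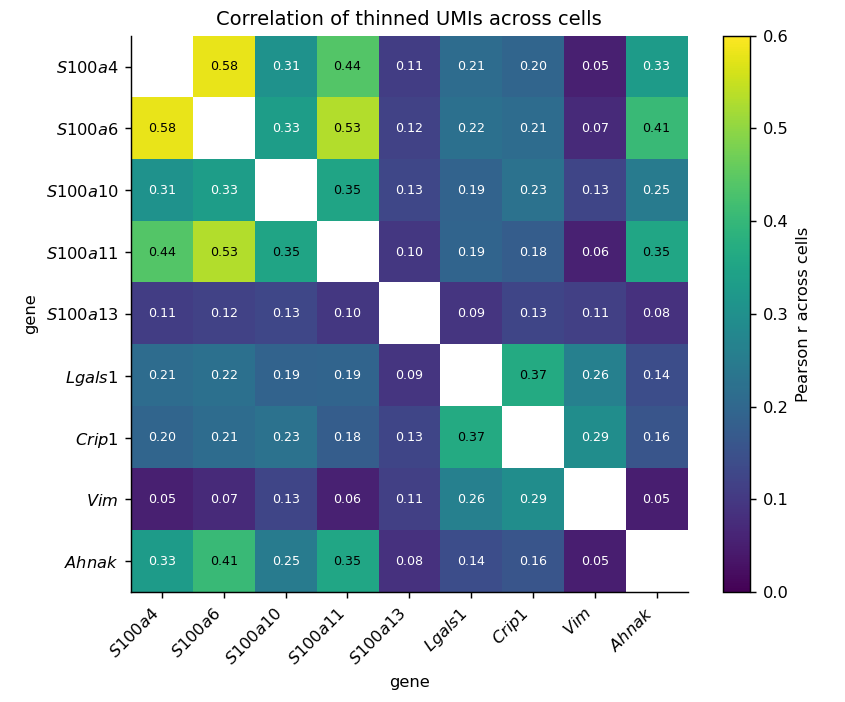
Pearson correlation (colour and number) of log2 of 1 plus UMIs for each pair of members over 4110 cells thinned to 3000 UMIs. The highest values are those among S100a4, S100a6 and S100a11 (0.44 to 0.58). With these genes Ahnak has 0.33 to 0.41 and S100a10 has 0.31 to 0.35. Lgals1 with Crip1 lies in the same range, at 0.37.

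Cells with at least 3 of S100a4, S100a6, S100a11 and Ahnak detected after thinning numbered 132 of 4110, a cell group set after the values were seen. The 4 genes were read from the thinned counts, and the markers that follow from the full counts of the same cells. Of the 132 cells, 40.2% (31.7 to 49.0) also had a UMI of Cxcr3. The share was 0.547% (0.325 to 0.863) of the 3290 cells with none of the 4 genes. S1pr1 was found in 53.8% and 52.9% of the 2 groups, Ctla4 in 37.1% and 20.2%, and Mki67 in 13.6% and 8.39%. Foxp3 was detected in 26.5% of them and Il2ra in 18.2%, against 20.2% and 23.1%.

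The first comparison asked how the members differ between cells with and without a UMI of each state marker. S100a4, S100a6, S100a11 and Ahnak were far higher in the 149 cells with a Cxcr3 UMI than in the other 4266. S100a4 stood at 453.2 CPM in them (422 UMIs) and 23.7 in the other cells, 19.1-fold, a log2 ratio of 4.26 (4.08 to 4.44). S100a6 stood at 660.5 and 40.6 CPM, 16.3-fold (log2 4.02, 3.88 to 4.17), Ahnak at 269.6 and 24.3 CPM, 11.1-fold (3.47, 3.26 to 3.68), and S100a11 at 719.5 and 76.5 CPM, 9.40-fold (3.23, 3.11 to 3.36). S100a10, found in most cells, was 3.46-fold higher (1.79, 1.70 to 1.88). Lgals1 was 2.02-fold, Crip1 1.80-fold and S100a13 1.61-fold higher, and Vim lay at a log2 ratio of -0.20 (-0.31 to -0.08). So 8 of the 9 members were at least 1.5-fold higher and 0 lower by as much. Among all genes with at least 100 UMIs in the cells compared, 10.3% were higher and 16% lower. The members' median log2 ratio was 1.79 against -0.07 over all those genes.

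The class with Cxcr3 was itself mixed for the concentrated genes. S100a4 had a UMI in 58 of the 149 cells (38.9%), S100a6 in 83 (55.7%), Ahnak in 102 (68.5%) and S100a11 in 121 (81.2%). By mouse, S100a4 stood at 460.7 CPM in the 95 Lta-/- cells of the class and at 442.0 in the 54 Foxp3eGFP cells, so its level there was nearly the same in both mice. S100a6 stood at 880.2 and 332.1 CPM and Ahnak at 320.9 and 192.9. Cells with Cxcr3 and S1pr1 had 1.73 times the Vim (817.2 and 471.8 CPM) and 1.62 times the Crip1 of those with Cxcr3 alone, and 1.15 times the S100a4 (log2 0.20, -0.08 to 0.48). Within the Cxcr3 class S100a4 was highest in the 23 cells with Foxp3 alone, at 1002 CPM from 138 UMIs, and stood at 367.0 CPM in the 106 cells with neither gate transcript, 336.7 in the 14 with Il2ra alone and 252.0 in the 6 with both.

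Markers of other cells moved with the Cxcr3 class. The gamma-delta T cell list (6 of 7 genes detected, Sox13 at 0) summed to 205.1 CPM in it against 59.0 in the other cells. The innate-like T list (5 of 6, Trav11 at 0) summed to 181.5 against 53.6. The macrophage list (6 of 9) summed to 299.6 against 9.67 CPM and the dendritic list (6 of 7, Xcr1 at 0) to 123.5 against 0.863. Most of that came from Tyrobp, with 193 UMIs in 7 cells, and Siglech and Cd209a, with 63 and 44 UMIs in 2 cells each, while Csf1r and Adgre1 were at 0, as was Lyz2 by the choice of cells. Leaving out the cells with B, plasma, myeloid or dendritic markers gave 4.33 for S100a4, 4.02 for S100a6 and 3.47 for Ahnak. Leaving out those with gamma-delta, natural killer or innate-like T markers gave 4.16, 4.59 and 3.52. The natural killer gene Klrd1 had 112 UMIs in 14 of the 149 cells, 120.3 CPM against 2.09 in the other cells. Cd3g had a UMI in 98.0% of the class and 98.7% of the other cells, Cd3e in 92.6% and 95.4%, and the Treg list summed to 2065 CPM against 2091.

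**Figure D3:**
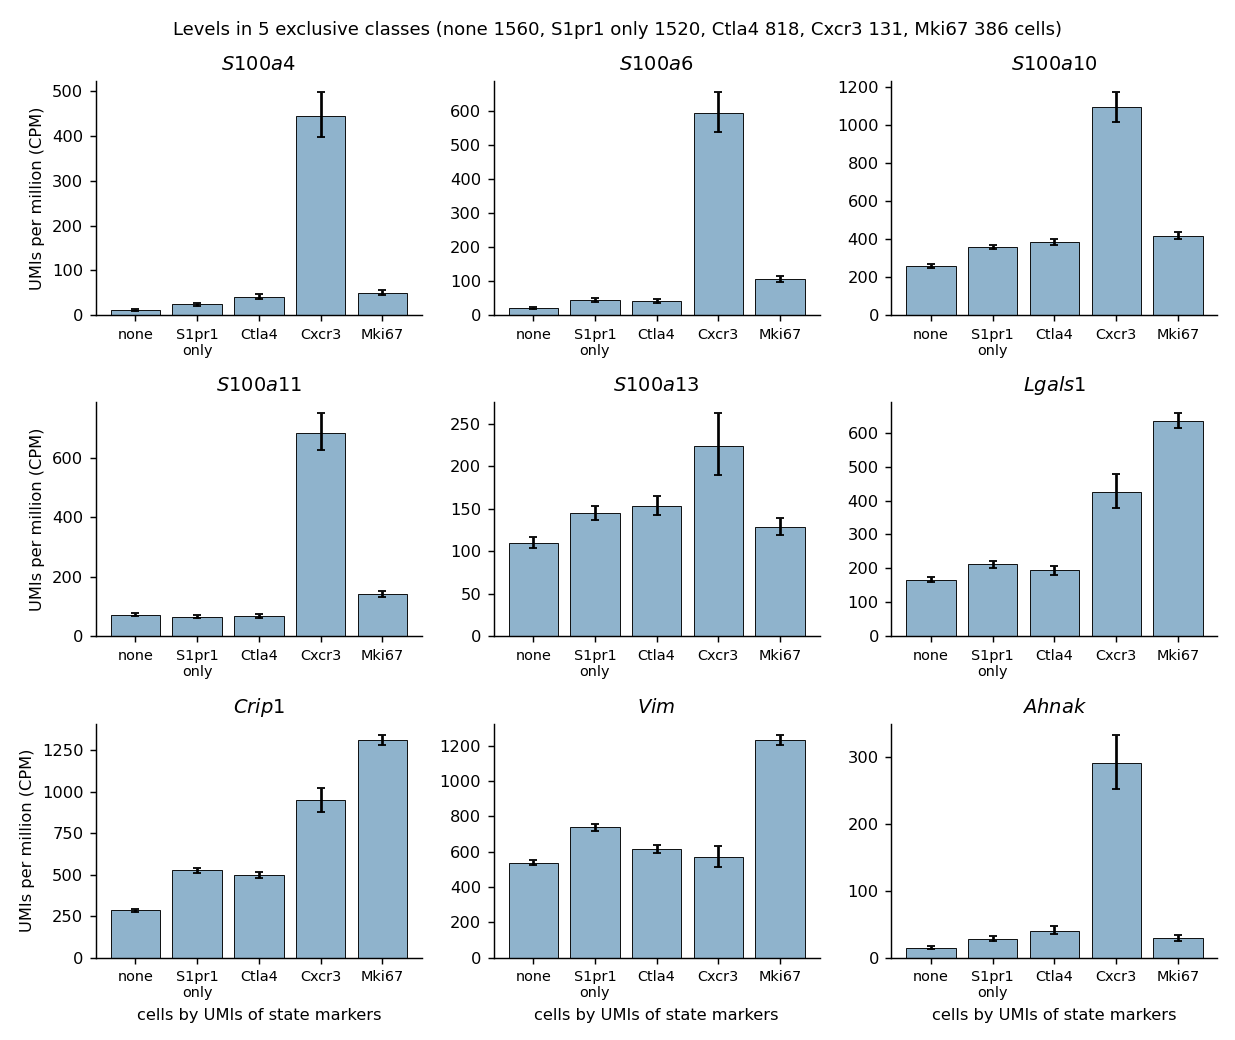
Level of each member (y, CPM from 0, own scale per panel) in 5 exclusive classes of cells, with 95% Poisson intervals. Classes: none of the 4 state markers, S1pr1 alone, Ctla4 without Cxcr3 or Mki67, Cxcr3 without Mki67, and Mki67 with or without others. S100a4, S100a6, S100a11 and Ahnak peak with Cxcr3 (445.7, 595.2, 685.8 and 290.4 CPM), and Lgals1, Crip1 and Vim with Mki67 (635.0, 1313 and 1233 CPM).

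Lgals1, Crip1 and Vim had their highest levels in dividing cells. In the 386 cells with a Mki67 UMI, Lgals1 stood at 635.0 CPM against 196.4 in the others, 3.23-fold (log2 1.69, 1.63 to 1.76). Crip1 stood at 1313 against 434.1 CPM, 3.02-fold (1.60, 1.55 to 1.64), and Vim at 1233 against 626.0 CPM, 1.97-fold (0.98, 0.94 to 1.02). These 3 genes had a UMI in 89.6%, 95.1% and 93.8% of the dividing cells. S100a6 was 2.08-fold and S100a11 1.62-fold higher. Ahnak (log2 -0.15, -0.41 to 0.09) and S100a13 (-0.06, -0.18 to 0.05) lay near equality. Thus 5 of 9 members were at least 1.5-fold higher and 0 lower, where 12.6% and 17.9% of all genes were. The median of cells with a Mki67 UMI was 13328 UMIs, against 5270 in the others, so depth moved with this class. With every cell thinned to 3000 UMIs the class was set again from the thinned counts, at 123 Lta-/- and 182 Foxp3eGFP cells. The ratios were then 1.78 for Lgals1, 1.68 for Crip1 and 1.01 for Vim. S100a6 lay at 0.56 and S100a11 at 0.53, both under 1.5-fold, while S100a4 lay at 0.65. The parts of depth and of the changed class in these shifts were not tested.

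The S100a6 ratio in dividing cells came mostly from the Lta-/- mouse, at 1.58 there and 0.27 in the Foxp3eGFP mouse. Lgals1 gave 1.64 and 1.75, Crip1 1.61 and 1.58, and Vim 1.01 and 0.98 in the same order, so these 3 were alike in both mice. Gamma-delta genes summed to 148.4 CPM in the dividing cells and 44.0 in the others, and without cells of gamma-delta, natural killer or innate-like T markers S100a6 lay at 0.50 and S100a11 at 0.25, while Lgals1 stood at 1.68, Crip1 at 1.63 and Vim at 1.12. Plasma cell genes summed to 1416 CPM in the dividing cells and 209.8 in the others, with Iglc2 and Igha from 4 cells each. Without plasma and other non-T marker cells the ratios were 1.68, 1.61 and 0.98.

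**Figure D4:**
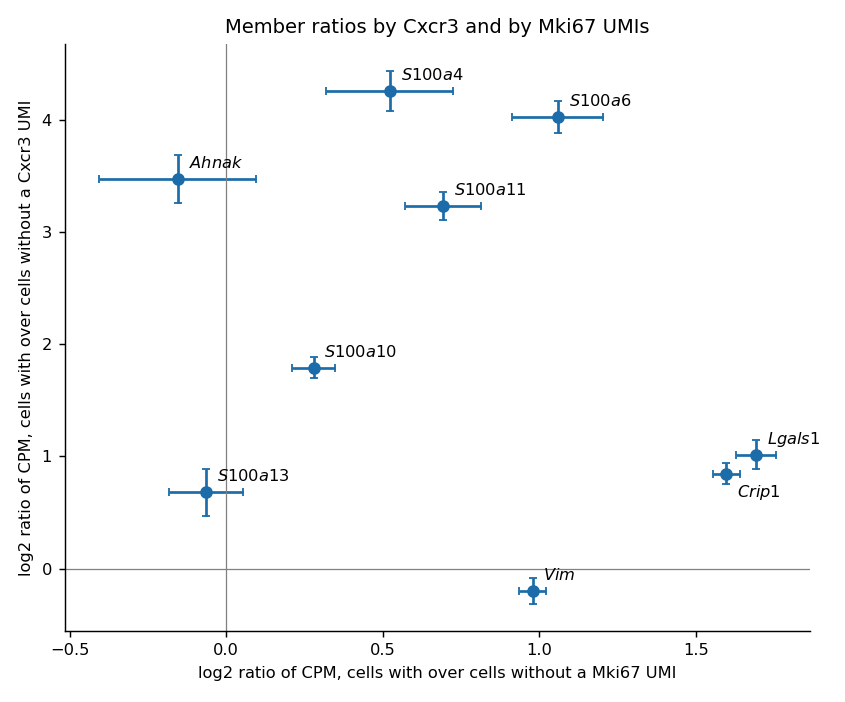
Log2 ratio of CPM between cells with and without a Cxcr3 UMI (y) against that between cells with and without a Mki67 UMI (x), 1 point per member, with 95% counting intervals. Lgals1 and Crip1 lie farthest right (1.69 and 1.60), S100a4, S100a6, Ahnak and S100a11 at the top (3.23 to 4.26), Vim alone below 0 on the Cxcr3 axis (-0.20), and S100a13 at -0.06 and 0.68.

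By S1pr1 and Ctla4 the differences were smaller. In 2342 cells with a S1pr1 UMI, S100a6 stood at 77.2 CPM against 44.3 (log2 0.80, 0.66 to 0.94), Ahnak at 40.9 against 23.5 (0.80, 0.60 to 0.99) and S100a4 at 46.4 against 28.8 (0.69, 0.51 to 0.87). These 3 of 9 were at least 1.5-fold higher and 0 were lower, where 5.62% and 10.6% of all genes were, and S100a11 lay at 0.05 (-0.05 to 0.16). Leaving out Mki67 or Top2a cells, thinning, or averaging over cells each left 1 of 9 past that ratio. In 913 cells with a Ctla4 UMI, S100a4 stood at 64.1 CPM against 31.1 (1.05, 0.86 to 1.23), Ahnak at 52.5 against 27.2 (0.95, 0.75 to 1.15) and S100a6 at 90.6 against 53.3 (0.77, 0.61 to 0.92). Again 3 of 9 were higher by that ratio and 0 lower, where 3.88% and 7.52% of all genes were. Lgals1 and Vim lay at -0.07 and -0.20. The S100a4 ratio with Ctla4 was 2.03 (1.75 to 2.30) in the Foxp3eGFP mouse and 0.21 (-0.07 to 0.49) in the Lta-/- mouse. In the same order S100a6 gave 0.75 and 0.78 and Ahnak 1.12 and 0.87. With S1pr1, S100a4 gave 1.20 and 0.37, S100a6 0.79 and 0.83 and Ahnak 0.83 and 0.81.

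Because the state classes overlap, each was also set against the 1560 cells with none of the 4 markers, which had the lowest level of every member but S100a11. That set is the shared reference of the values that follow, and this comparison was chosen after the data were seen. S100a4 stood at 11.02 CPM in those cells, at 24.0 with S1pr1 alone, 40.7 with Ctla4 but without Cxcr3 or Mki67, 49.9 with Mki67 and 445.7 with Cxcr3 but without Mki67. Ahnak stood at 14.5, 27.9, 40.5, 29.5 and 290.4 CPM in the same order, and S100a6 at 20.05, 44.1, 42.3, 104.9 and 595.2. S100a11 stood at 72.0, 65.5 and 67.8 CPM in the first 3 classes, 140.9 with Mki67 and 685.8 with Cxcr3. Crip1 stood at 284.1, 526.0 and 498.7 CPM in the first 3 classes, 1313 with Mki67 and 948.9 with Cxcr3. S100a4 was 4.53-fold higher with Mki67 than in this reference. The Mki67 class kept its 18 cells that also had a Cxcr3 UMI, and their part in its levels was not tested.

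The second comparison divided the cells by the transcripts of the sort markers: 494 with Foxp3 alone, 577 with Il2ra alone, 389 with both and 2955 with neither. The sort read protein and reporter, and a cell with no UMI may still hold the protein. In the 4 comparisons made between these classes, the members past 1.5-fold were S100a4, S100a6 and S100a11. S100a4 stood at 75.0 CPM with Foxp3 alone, 32.2 with Il2ra alone, 32.4 with both and 34.3 with neither. S100a6 stood at 70.1, 43.8, 34.3 and 66.2 CPM, S100a11 at 120.2, 73.1, 58.0 and 104.1, and Ahnak at 50.5, 35.8, 40.7 and 28.0. Of the broad genes, Vim stood at 663.8, 510.8, 649.8 and 808.8 CPM and Lgals1 at 222.8, 252.5, 240.8 and 297.7.

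Against the cells with both transcripts, the Foxp3 only cells were at least 1.5-fold higher for 3 of 9 members and lower for 0, where 2.08% and 2.95% of all genes were. These were S100a4 (log2 1.21, 0.83 to 1.60), S100a11 (1.05, 0.76 to 1.34) and S100a6 (1.03, 0.65 to 1.41). Il2ra only cells had 0 of 9 higher and 0 lower, where 7.82% and 3.69% of all genes were. Cells with neither had 2 of 9 higher (S100a6 0.95 and S100a11 0.84) and 0 lower, where 12.2% and 6.13% of all genes were. These 3 comparisons share the class with both, whose S100a4 came from 8 cells. Foxp3 only against Il2ra only cells gave 3 of 9 higher and 0 lower, where 6.35% and 11.6% of all genes were, with S100a4 at 1.22, S100a11 at 0.72 and S100a6 at 0.68. Without the top 1% of cells S100a4 lay at -0.21 in that comparison and 1 of 9 was left past 1.5-fold. Of the 199 S100a4 UMIs of the Foxp3 only cells, 138 lay in the 23 of them with a Cxcr3 UMI, as did 113 of 186 for S100a6 and 130 of 319 for S100a11. In the class with both, 6 cells had Cxcr3 and held 7 of 82 S100a4 UMIs. The S100a4 ratio of Foxp3 only over both was 2.95 in the Foxp3eGFP mouse and -0.13 in the Lta-/- mouse, and without the top 1% of cells 1 of 9 members was left past 1.5-fold.

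The third comparison set the Lta-/- cells against the Foxp3eGFP cells. S100a6, Ahnak and S100a4 were higher in the Lta-/- cells and the broad genes were nearly level. S100a6 stood at 84.7 CPM in the Lta-/- mouse and 38.1 in the Foxp3eGFP mouse, 2.22-fold (log2 1.15, 1.01 to 1.30), and was found in 186 and 99 cells. Ahnak stood at 44.2 and 20.9 CPM, 2.11-fold (1.08, 0.88 to 1.28), in 301 and 170 cells. S100a4 stood at 45.5 and 30.1 CPM, 1.51-fold (0.60, 0.42 to 0.77), in 95 and 64 cells. These 3 of 9 members were at least 1.5-fold higher, where 1.32% of all genes were, and 0 of 9 were lower by as much, where 1.97% of all genes were. S100a11 lay at 0.31 (0.20 to 0.41), S100a10 at 0.26, S100a13 at 0.11, Vim at 0.08, Lgals1 at -0.06 and Crip1 at -0.17 (-0.22 to -0.13).

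Ahnak was higher in the Lta-/- cells in each of the 8 classes, and each interval lay above 0. Its log2 ratio ran from 0.73 (0.33 to 1.15) in cells with Cxcr3 to 1.42 (0.94 to 1.92) in cells with Mki67. The state marker classes draw on the same cells as the gate classes, so the classes are not separate. S100a6 was higher in 7 of the 8, from 0.42 (-0.03 to 0.88) with Il2ra alone to 2.13 (1.85 to 2.41) with Mki67, with 6 intervals above 0, and lay at -0.10 (-0.53 to 0.33) with Foxp3 alone. S100a10 was higher in 7 of 8 with intervals above 0, by up to 0.52, and lay at 0.03 (-0.13 to 0.20) with Foxp3 alone. S100a4 had no common direction. It lay at -0.79 (-1.23 to -0.36) with Foxp3 alone, -0.57 with Ctla4, 0.06 with Cxcr3, 0.91 with neither gate transcript and 1.18 with Mki67. With both gate transcripts it lay at 2.29, on 64 UMIs from 6 Lta-/- cells and 18 from 2 Foxp3eGFP cells, under the 100 UMIs asked of a counted gene.

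Over the 8 classes 17 of 70 member values with at least 100 UMIs were 1.5-fold or more higher in the Lta-/- cells. In the other direction 1 was lower, S100a4 with Foxp3 alone. Because the classes share cells, the 70 values count cells more than once and are not separate results. Shares over all genes are given for each class. With Foxp3 alone, 1 of 9 was higher and 1 lower, where 0.904% and 2.22% of all genes were. With Il2ra alone, 1 was higher and 0 lower (all genes 1.4% and 2.19%), and with both, 2 of 7 measured members were higher and 0 lower (1.06% and 2.03%). With neither, 3 were higher and 0 lower (1.4% and 2.33%). Ahnak was among the higher members in each of these 4 classes. With Cxcr3, 2 were higher and 0 lower (4.6% and 5.11%), and with S1pr1, 2 and 0 (0.899% and 2.13%), in both classes S100a6 and Ahnak. In the cells with a Foxp3 or Il2ra UMI, S100a6 within the S1pr1 class lay at -0.30. With Ctla4, 3 were higher and 0 lower (1.19% and 1.17%), S100a6, Ahnak and S100a11, and with Mki67, 3 and 0 (1.26% and 1.5%), S100a6, Ahnak and S100a4. Within the Cxcr3 class gamma-delta genes summed to 69.9 CPM in the Lta-/- and 407.2 in the Foxp3eGFP cells, and macrophage genes to 485.8 and 21.4. Their part in these ratios was not tested.

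**Figure D5:**
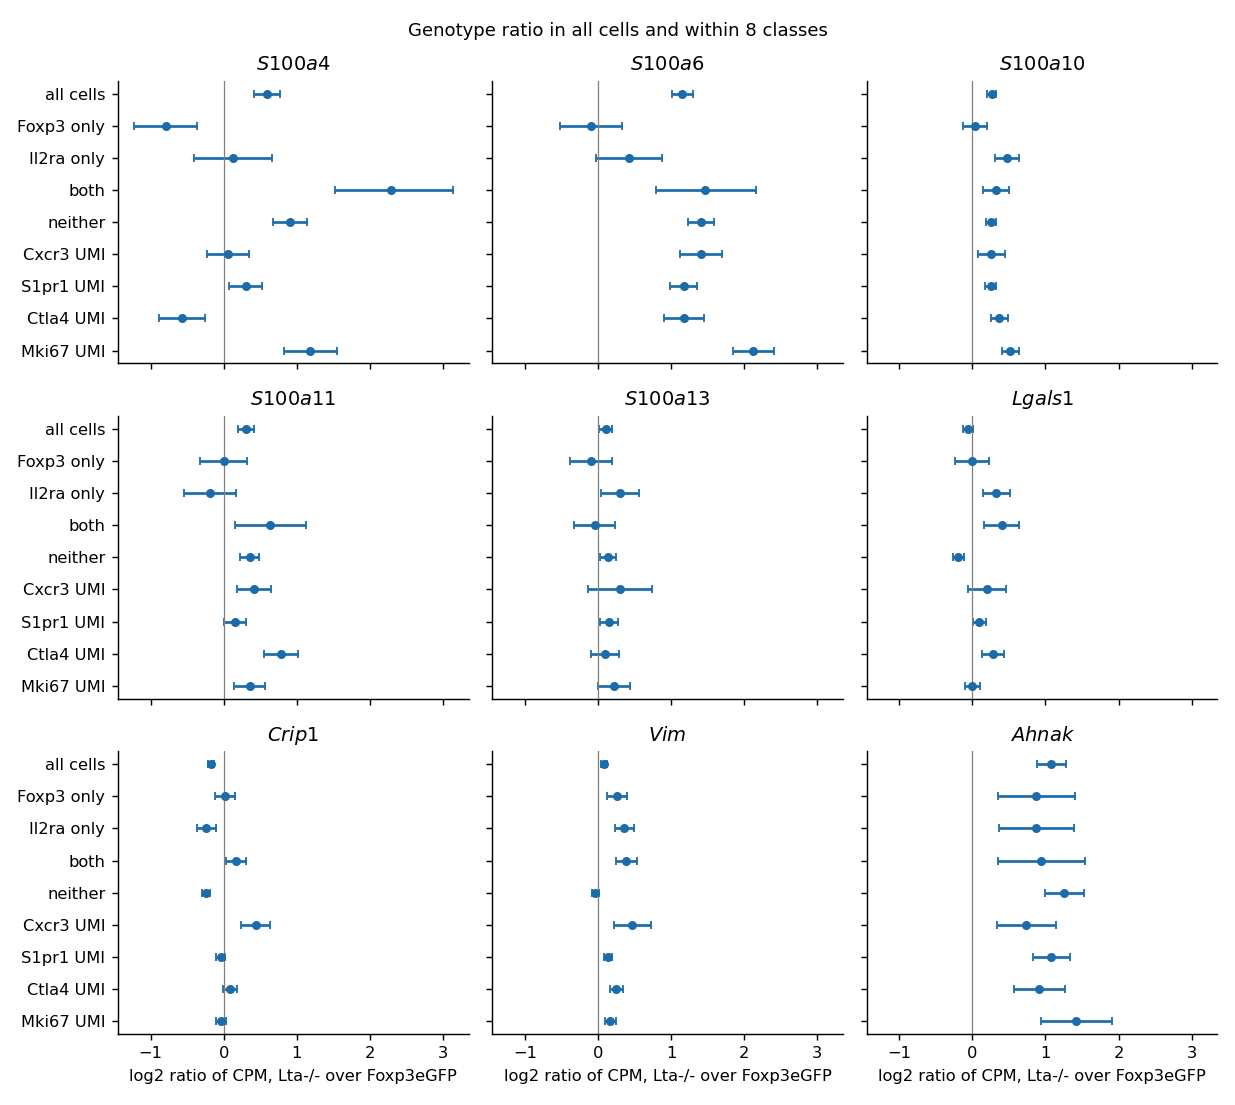
Log2 ratio of CPM, Lta-/- over Foxp3eGFP (x), for each member in all cells and within 4 classes by Foxp3 and Il2ra UMIs and 4 by state marker UMIs (y), with 95% counting intervals for 1 mouse per genotype. All 9 points of Ahnak lie right of 0 (0.73 to 1.42), those of S100a4 lie on both sides (-0.79 to 2.29), and those of Crip1 lie within 0.44 of 0.

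The mix of classes differed between the mice beside these values. Cells with a Cxcr3 UMI made up 4.27% (3.47 to 5.20) of the Lta-/- cells and 2.46% (1.86 to 3.20) of the Foxp3eGFP cells, and 3.00% and 1.52% after thinning. Cells with a Mki67 UMI made up 7.33% and 10.2%. Without the Cxcr3 cells the genotype ratio was 0.98 for Ahnak, 0.76 for S100a6 and 0.54 for S100a4, and without Mki67 or Top2a cells 0.98, 0.62 and 0.34. In the cells with a Foxp3 or Il2ra UMI it was 0.91 for Ahnak, 0.45 for S100a6 and 0.16 for S100a4. S100a4, at 1.51-fold just past the cutoff, fell under 1.5-fold in 8 alternatives. It was lowest without the top 1% of cells, at 0.13, so its genotype difference rests on few cells. At least 3 of S100a4, S100a6, S100a11 and Ahnak were detected in 4.21% (3.39 to 5.17) of the thinned Lta-/- cells. The share was 2.20% (1.61 to 2.93) of the thinned Foxp3eGFP cells. Among cells without a Cxcr3 UMI in their full counts the shares were 2.57% and 1.40%. Plasma cell genes summed to 119.8 CPM in the Lta-/- and 738.9 in the Foxp3eGFP cells and macrophage genes to 31.9 and 6.96. Without the cells that carried such markers the ratios were 0.96 for Ahnak, 1.04 for S100a6 and 0.60 for S100a4.

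The other genes of these families were read from lists chosen with earlier results known. Only genes with at least 100 UMIs in the cells compared were counted, so several lists held more genes than those counted. The counts stand beside the shares over all genes, 10.3% higher and 16% lower with Cxcr3, and 12.6% and 17.9% with Mki67. Of 12 other S100 genes, none had 100 UMIs. S100a1 had the most with 16, and S100a5 and S100a8 had 0. Of 5 annexins with enough UMIs, 2 were at least 1.5-fold higher with Cxcr3, Anxa2 at 1.22 and Anxa6 at 0.60, and with Mki67 Anxa2 was higher at 1.39. Anxa2 thus was higher in both classes, while its partner S100a10 was past 1.5-fold with Cxcr3 and at 0.28 with Mki67. Of 6 other galectin genes, 3 were higher and 0 lower with Cxcr3, and 2 were higher and 1 lower with Mki67. Lgals3 was higher in both (1.20 and 1.98), and Lgals8 lay at -0.68 with Mki67. Of 13 other LIM domain genes, 2 were higher and 5 lower with Cxcr3, against 4 higher and 0 lower with Mki67, among them Csrp1 at -1.18 and 0.82.

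Of 32 actin and membrane cytoskeleton genes, 4 were higher and 2 lower with Cxcr3. Tagln2, an actin-binding protein gene, lay at 1.80, the actin-capping gene Capg at 1.63 and Lcp1, for an actin-bundling protein, at 0.90. With Mki67 2 were higher, Tagln2 at 1.59 and Actn4 at 0.81. Tubulin genes and Stmn1, a gene for a regulator of microtubules, were counted as well: of 9, 6 were lower and 0 higher with Cxcr3, and 5 higher and 1 lower with Mki67, with Stmn1 at -1.13 and 3.44. Of 8 genes of intermediate filaments and the nuclear lamina, 1 was higher and 1 lower with Cxcr3, and 3 higher and 2 lower with Mki67. Among them, Lmnb1 lay at 3.03 with Mki67 and Lmna at -1.64 with Cxcr3. By genotype, 0 of the annexin, actin, tubulin and lamina genes passed 1.5-fold. Of the 6 other galectin genes 1 was higher in Lta-/- cells, and of the 13 other LIM domain genes 1 was lower. Over all genes, 1.32% were higher and 1.97% lower.

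Effector or recirculating T cell genes went with the Cxcr3-linked members. Of the 29 genes listed, 19 had at least 100 UMIs in the cells compared. A gene high in the Cxcr3 cells could reach that minimum through those cells, so the counts are a description. With Cxcr3, 18 of the 19 were at least 1.5-fold higher, where 10.3% of all genes were. The median of the 19 was 2.95 against -0.07 over all genes. The chemokine gene Ccl5 lay at 5.13, Ly6c2 at 5.06, the transcription factor gene Maf at 4.24 and Cxcr6 at 3.90. Of 11 immature or activated thymocyte genes, 10 were lower, with Sox4 at -3.51 and Satb1 at -2.62. Of 12 genes of thymic exit and maturation, 3 were higher and 5 lower, among the latter Ccr7 at -1.82 and Lef1 at -1.77. By genotype, 3 of the 19 effector genes were at least 1.5-fold higher in Lta-/- cells, Ly6c2 at 1.05, the integrin gene Itgb1 at 0.64 and Maf at 0.62, beside S100a6 and Ahnak.

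The genes most like the members across 4110 thinned cells were ranked among 5992 genes found in at least 5% of them. Those with the highest correlation with the summed members were Tmsb4x (0.40), Emp3 (0.36), Hmgb2 (0.35), Fxyd5 (0.30), Tspo (0.28), Klf2 (0.27), Top2a (0.27) and Rac2 (0.26). Singly, the closest gene was Itgb1 for S100a4 (0.33), S100a6 (0.38) and Ahnak (0.36), and Hmgb2 for Lgals1 (0.31) and Crip1 (0.37). It was AW112010 for S100a11 (0.32), Emp3 for Vim (0.32) and Tmsb4x for S100a10 (0.28) and S100a13 (0.18).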

How the data were processed

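Raw UMI counts, whole numbers for each gene in each barcode, were made by the authors from a 10x Genomics 3′ v3.1 capture, per the labels' protocols, and deposited as 1 matrix of 4798 barcodes, 32285 genes and 2 hashtags. Cell Ranger 6.0.1 and GRCm38 (mm10) are named in the submitters' processing notes. How reads were aligned, annotated and assigned to cells is not given in the sources used here. Members and gene lists were chosen with earlier results of these data known.

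The filter asked for 500 genes and no more than 10% mitochondrial UMIs (160 barcodes removed). Genotype was set by the hashtag with 10 or more counts and a share of 80% or more. The direction was taken from the feature names, whose hashtag numbers differ from those in the labels' protocols. The 185 cells with both hashtags and 38 with a Lyz2 UMI were left out, and no doublet caller was run, so doublets within a genotype are kept. Cells were not clustered.

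UMIs were summed per class and scaled to 1000000. Ratios have conditional binomial intervals, shares Clopper-Pearson intervals and levels Poisson intervals, all exact at 95% and for counting error only. A gene counted as measured with 100 UMIs in the cells compared and as higher or lower from 1.5-fold on. Of each gene list, up to 4 genes with the largest ratio in either direction were named, and the 8 genes most like the summed members. With 1 mouse per genotype no p-value was computed. Correlations used log2 of 1 plus UMIs in cells thinned to 3000 UMIs. Some list genes are not reported here. Calculations were tested on simulated data. Alternatives changed filters, depth, class and hashtag thresholds, scaling, weighting and cells left out. Python 3.11.15, numpy 2.4.6, scipy 1.17.1, pandas 2.3.3 and matplotlib 3.10.9 were used.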

Additional observations from a re-analysis of the deposited data

Results flagged for a closer look

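Of 72 member values compared between classes, 17 had opposite directions in the 2 mice. The difference between the mice was not tested, since there was 1 mouse per genotype, and many of these log2 ratios lie near 0. Each pair below gives the Foxp3eGFP cells first and the Lta-/- cells second.

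In Foxp3 only over both, S100a4 lay at 2.95 and -0.13, S100a10 at 0.27 and -0.021, Lgals1 at 0.071 and -0.33, and Vim at 0.070 and -0.054. In Il2ra only over both, S100a4 lay at 1.33 and -0.83, S100a6 at 0.95 and -0.092, and S100a11 at 0.72 and -0.11. In neither over both, S100a4 lay at 0.96 and -0.43, Lgals1 at 0.58 and -0.011, and Crip1 at 0.00098 and -0.41. These 3 comparisons share the class with both transcripts, in which 2 Foxp3eGFP and 6 Lta-/- cells held all the S100a4 UMIs. In Foxp3 only over Il2ra only, S100a13 lay at 0.39 and -0.010.

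In cells with over cells without a S1pr1 UMI, S100a11 lay at 0.23 and -0.084. By Ctla4, S100a11 lay at -0.047 and 0.58, Lgals1 at -0.28 and 0.15, and Crip1 at -0.079 and 0.24. By Mki67, S100a13 lay at -0.12 and 0.026 and Ahnak at -0.33 and 0.099. The comparison by Cxcr3 gave no such pair.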

How the results depend on the processing

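No paired analysis was possible because there was 1 mouse per genotype and the labels give no replicate numbers. Of 2061 member values recomputed, 1581 stayed within their interval, 477 moved beyond it and 3 reversed. S100a4 lay at -0.21 in Foxp3 only over Il2ra only without the top 1% of cells and at -0.13 in Foxp3 only over both in Lta-/- cells. S100a6 by genotype with S1pr1 lay at -0.30 in the cells with a Foxp3 or Il2ra UMI. With Cxcr3, 8 of 9 members were higher under each alternative but Foxp3eGFP cells alone and a ratio of 2, with 6 each. Shares over all genes are given here for the main setting only. The counts under alternatives, here and below, thus describe the members alone.

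Other counts of members higher or lower (of 9) moved as follows. For Foxp3 only over both, 1 was higher without the top 1% of cells and in Lta-/- cells. For Il2ra only over both, 1 was higher by the mean of cells and without Mki67 or Top2a cells, and 3 in Foxp3eGFP cells. There 1 was lower without gamma-delta, natural killer or innate-like T marker cells, at a class threshold of 2 UMIs and without the top 1%, and 2 in Lta-/- cells. For neither over both, 0 were higher without those marker cells and at a ratio of 2, and 1 without the top 1%. There 1 was lower with stricter filters, without B, plasma, myeloid or dendritic marker cells, without the innate-like T marker cells, at 2 UMIs, under the other scaling, without Mki67 or Top2a cells, without the top 1% and in Foxp3eGFP cells. For Foxp3 only over Il2ra only, 5 were higher without the innate-like T marker cells and at 2 UMIs, and 1 with both-hashtag cells kept, without the top 1% and at a ratio of 2.

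With S1pr1, 1 was higher after thinning, by the mean of cells and without Mki67 or Top2a cells, and 0 at a ratio of 2. With Ctla4, 1 was higher at a ratio of 2. With Mki67, 3 were higher without the innate-like T marker cells and at a ratio of 2, and 1 was lower at 2 UMIs. Against cells with none of the markers (added after the data were seen), 8 were higher. After thinning, with the class set again from the thinned counts, S100a6 and S100a11 fell under 1.5-fold with Mki67 and S100a4 passed it. By genotype, 1 was higher in cells with a Foxp3 or Il2ra UMI. The 8 classes share cells. Over them, counted with no UMI minimum, 19 values were higher and 1 lower, and 11 and 0 at a ratio of 2. Without S100a4 and S100a6 in the class with both, which had under 100 UMIs, these counts were 17 and 1, and 9 and 0. There 3 were lower with Lyz2 cells kept and 2 without the innate-like T marker cells, after thinning, without the top 1% and with stricter hashtags. With Lyz2 cells kept the genotype ratio of S100a4 was 0.29. Crip1 in Lgals1 cells was 65.1% at 2000 UMIs and 80.9% without thinning. S100a4 had 1081 UMIs from 159 cells and Ahnak 926 from 471, which limits both.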
